A study of Mus musculus with 14 samples.

Results

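Cd79a, Cd79b, Ms4a1, Cd22 and Blk encode components of the B cell antigen receptor, surface proteins of B cells and a kinase of the B lineage. They were chosen by gene symbol, and each matched 1 row of the 49315 in the count table. Their RNA was measured in hearts of male wild-type C57BL/6 mice kept on standard chow, in 4 libraries at 12 weeks of age and 4 at 68 weeks. Each library was made from total RNA of roughly 10 mg of powdered heart, so all cells of the organ and any attached tissue contribute. Regions of the histone mark H3K27me3 were also listed by the authors for each age.

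A B cell recognises antigen through a membrane immunoglobulin, which has almost no cytoplasmic part of its own. CD79A and CD79B, known as Ig-alpha and Ig-beta, form a heterodimer beside it and carry the tyrosine motifs that start the signal. Src-family kinases such as BLK and LYN phosphorylate those motifs and SYK then binds them. CD22 is a sialic acid-binding receptor that recruits phosphatases and dampens the signal, and MS4A1 is the surface protein CD20. The normal heart holds few B cells, many of them inside vessels, and plasma cells lose CD20 and CD22 as they mature. Blk is also expressed in some cells outside the B lineage.

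Cd79a (ENSMUSG00000003379) lies on chromosome 7 from 24897381 to 24902197 on the plus strand, in the coordinates of the count files, which are mm10 by label. Cd22 (ENSMUSG00000030577) lies on the same chromosome from 30865402 to 30880342 on the minus strand. Cd79b (ENSMUSG00000040592) lies on chromosome 11 from 106311341 to 106314762, Ms4a1 (ENSMUSG00000024673) on chromosome 19 from 11249675 to 11266241, and Blk (ENSMUSG00000014453) on chromosome 14 from 63372837 to 63417187, all on the minus strand. The exons of Cd79a, Cd79b, Ms4a1 and Blk overlapped those of 0 other genes in the count files. Exons of Cd22 overlapped those of 1 predicted gene, Gm29439, and whether strand was used in counting is not given in the sources used here.

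RefSeq promoters (GRCm38.p6) were at hand for 2 of the 5 genes, Cd79a and Cd22. They are shown because both genes have negative fitted log2 fold changes and their starts can be read side by side. Each sequence is the 250 bases before the RefSeq start, 5′ to 3′ on the gene's strand, at chr7:24897247-24897496 (plus strand) for Cd79a and chr7:30879029-30879278 (minus strand) for Cd22. Capitals mark matches, on either strand, to the octamer ATGCAAAT, the ETS core AGGAAGT or the EBF palindrome CCCNNGGG.
Cd79a: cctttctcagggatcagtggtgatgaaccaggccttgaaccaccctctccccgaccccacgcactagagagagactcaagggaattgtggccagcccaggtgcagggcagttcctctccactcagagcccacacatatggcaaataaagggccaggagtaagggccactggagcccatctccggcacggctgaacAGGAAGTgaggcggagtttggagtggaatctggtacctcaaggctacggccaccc
Cd22: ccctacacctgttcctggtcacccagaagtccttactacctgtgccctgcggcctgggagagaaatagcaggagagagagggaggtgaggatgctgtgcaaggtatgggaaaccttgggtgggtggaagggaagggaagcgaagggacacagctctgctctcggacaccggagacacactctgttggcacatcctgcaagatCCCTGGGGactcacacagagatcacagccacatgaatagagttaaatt
The Cd79a window held 1 ETS match, starting at position -55 from the RefSeq start, and the Cd22 window held 1 EBF match, starting at position -48. Of 32851 RefSeq promoter entries read over the same 250 bases, 7.69% held the ETS letters, 11.8% the EBF letters and 1.6% the octamer, which neither window held. The E box CANNTG, not marked, occurred 2 times in each window and in 66.2% of the entries. These matches describe letters, not bound sites. The RefSeq starts differ from the outer ends of the genes in the count files.

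The libraries held 23599296 to 34599121 counts, and the heart muscle genes Myh6, Tnnt2 and Ryr2 were abundant in all 8. Transcripts of airway epithelium set some libraries apart. Scgb1a1, which encodes the secretoglobin of airway club cells and is not a heart gene, stood at 351, 174, 135 and 6.02 CPM (counts per 1000000 counts of the library) in 12-week replicates 1 to 4. At 68 weeks it stood at 0.196, 0, 102 and 0.0578 CPM in replicates 1 to 4, where a count of 0 allows up to 0.104 CPM, the level of 3 counts in that library. The sum of 20 airway markers was 628 to 1987 CPM in 12-week replicates 1 to 3, and 68-week replicate 3 had 1268 CPM. In the 4 other libraries they summed to 19.1 to 65.5 CPM, with 12-week replicate 4 the highest of these. Most of each of these low sums was Tppp3, 1 of the 20 markers. It stood at 34.8 CPM in 12-week replicate 4 and at 27.4, 15.9 and 24.6 CPM in 68-week replicates 1, 2 and 4. Over all 8 libraries Tppp3 lay between 15.9 and 35.8 CPM. In 68-week replicates 1, 2 and 4 the sum, and the covariate built from it, thus mainly measure Tppp3. In 12-week replicate 4 the secretory genes among the markers also added 27.6 CPM, against 1.30 to 1.87 CPM in those 68-week libraries. High airway counts were found in 3 of 4 libraries at 12 weeks and in 1 of 4 at 68 weeks. Their part in the results below was not tested beyond the fits given there, and fewer B cells and less RNA per B cell cannot be told apart in whole tissue.

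**Figure D1:**
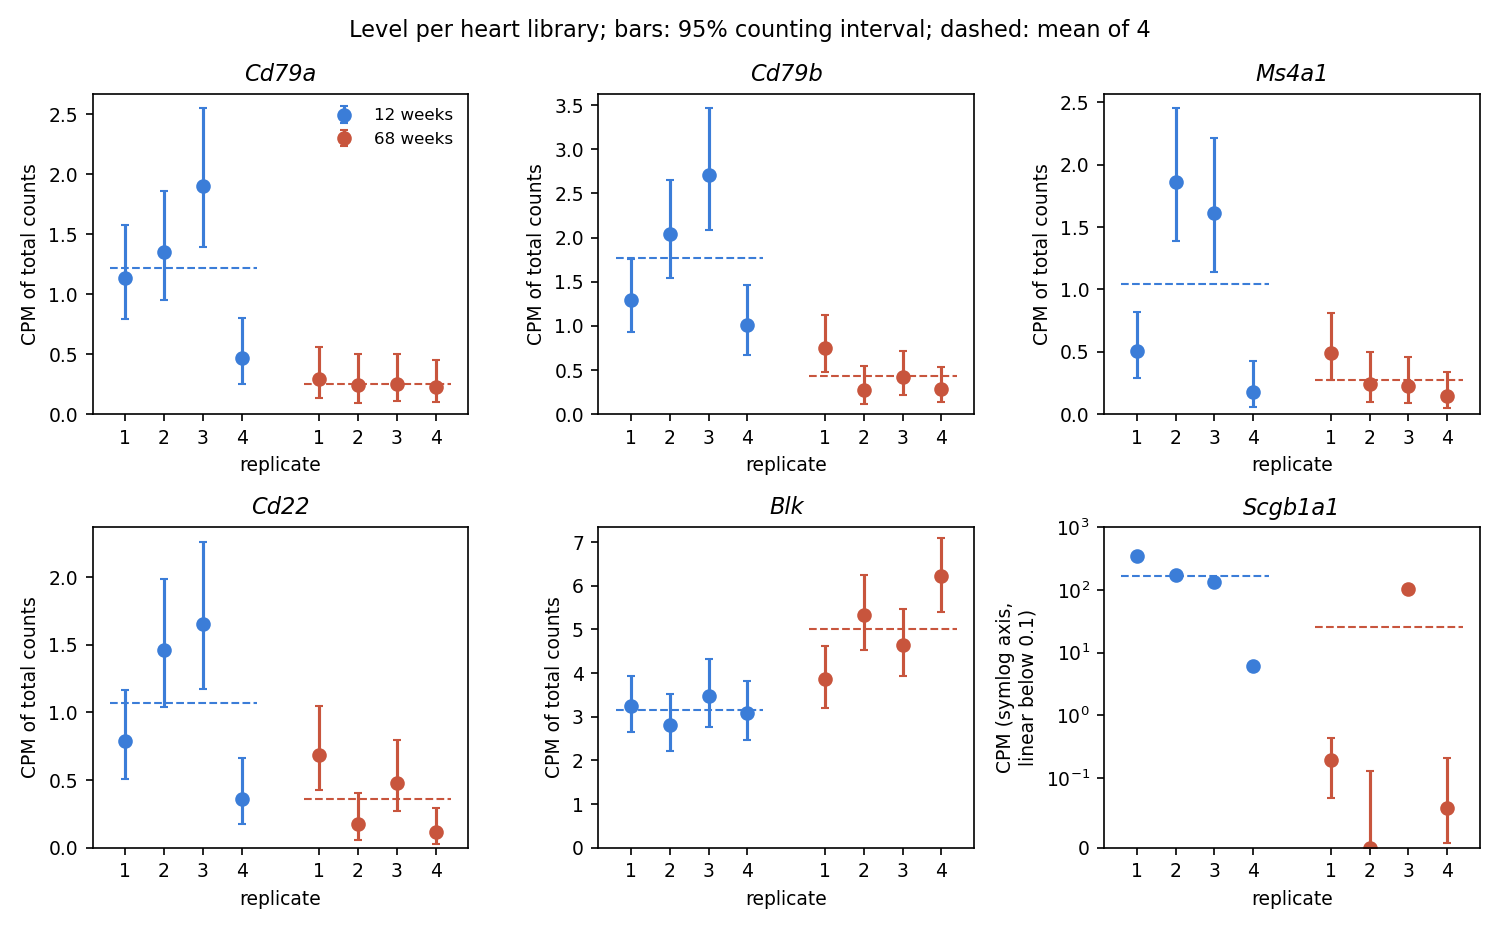
CPM of total counts (y) in each of 4 replicates per age (x) for the 5 B cell genes and Scgb1a1, whose axis is symlog; points are libraries, bars the 95% counting interval and dashed lines the mean of 4. Cd79a and Cd79b separate by age, Blk separates in the opposite direction, and Ms4a1, Cd22 and Scgb1a1 overlap.

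At 68 weeks the signalling chains of the receptor were lower. Cd79a fell 4.49-fold and Cd79b 3.90-fold in the fitted model, while Blk rose 1.66-fold. Ms4a1 and Cd22 had negative log2 fold changes and were not called. All 5 genes passed the filter on low counts. By edgeR's quasi-likelihood test, with p-values adjusted over 15947 genes at 0.05, 2 of the 5 were called lower and 1 was called higher. Among all genes tested, 1.22% were called lower and 1.61% higher, 195 and 256 genes, and with library size alone as the normalization 248 were lower and 177 higher.

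Cd79a stood at 1.14, 1.35, 1.91 and 0.472 CPM in the 12-week group (replicates 1 to 4), from 36, 37, 45 and 13 counts. At 68 weeks it stood at 0.294, 0.243, 0.257 and 0.231 CPM, from 9, 7, 8 and 8 counts. The groups did not overlap, and the closest pair was 12-week replicate 4 against 68-week replicate 1. The counting interval of that 12-week library ran from 0.251 to 0.807 CPM (95%, exact Poisson), which overlaps that of 68-week replicate 1, from 0.135 to 0.559 CPM. Intervals cover counting error only. The mean was 1.22 ± 0.593 CPM (SD, n = 4) at 12 weeks and 0.256 ± 0.0275 (SD, n = 4) at 68 weeks. The log2 fold change was -2.17 ± 0.41 (SE), with an adjusted p of 0.0287 by edgeR. The 4 libraries at 68 weeks lay close together, while at 12 weeks replicate 3 was highest and replicate 4 lowest. The call was kept without 12-week replicate 4 (adjusted p = 0.00879, edgeR) and was lost when any 1 of the other 7 libraries was left out, with adjusted p up to 0.0883 and log2 fold changes from -2.24 to -1.85.

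Cd79b, the partner chain, stood at 1.29, 2.05, 2.71 and 1.02 CPM in the 12-week group (replicates 1 to 4), from 41, 56, 64 and 28 counts. At 68 weeks it stood at 0.753, 0.277, 0.417 and 0.289 CPM, from 23, 8, 13 and 10 counts. The groups did not overlap, with 68-week replicate 1 the highest of its age and nearest to 12-week replicate 4. The counting intervals of these 2 libraries overlapped, 0.477 to 1.13 CPM and 0.675 to 1.47 CPM (95%). The mean was 1.77 ± 0.765 CPM (SD, n = 4) at 12 weeks and 0.434 ± 0.222 (SD, n = 4) at 68 weeks. The log2 fold change was -1.96 ± 0.41 (SE), with an adjusted p of 0.0412 by edgeR. The call was kept without 12-week replicate 4 or without 68-week replicate 1 (adjusted p = 0.0373 and 0.0333, edgeR). It was lost without any 1 of the other 6, with adjusted p up to 0.115. In normalized CPM, 5.86% of all genes tested were lower at 68 weeks with no overlap between the ages, as Cd79a and Cd79b were.

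Ms4a1, the gene of CD20, varied widely among the 12-week libraries. It stood at 0.505, 1.86, 1.61 and 0.181 CPM in the 12-week group (replicates 1 to 4), from 16, 51, 38 and 5 counts. At 68 weeks it stood at 0.491, 0.243, 0.225 and 0.145 CPM, from 15, 7, 7 and 5 counts. The groups overlapped, since 12-week replicate 4 lay below 3 of the 4 libraries at 68 weeks. The log2 fold change was -1.85 ± 0.68 (SE), with an adjusted p of 0.181 by edgeR and p = 0.171 by a two-sided exact permutation test of CPM. The fit did not separate the ages for this gene.

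Cd22, the inhibitory receptor, was also highest in 12-week replicates 2 and 3 and lowest in replicate 4 of that age. It stood at 0.79, 1.46, 1.65 and 0.363 CPM in the 12-week group (replicates 1 to 4), from 25, 40, 39 and 10 counts. At 68 weeks it stood at 0.687, 0.173, 0.482 and 0.116 CPM, from 21, 5, 15 and 4 counts. The groups overlapped, since 68-week replicates 1 and 3 lay above 12-week replicate 4. The log2 fold change was -1.49 ± 0.59 (SE), with an adjusted p of 0.211 by edgeR and p = 0.114 by a two-sided exact permutation test of CPM.

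Blk, the kinase, was the only one of the 5 to rise. It stood at 3.25, 2.81, 3.47 and 3.08 CPM in the 12-week group (replicates 1 to 4), from 103, 77, 82 and 85 counts. At 68 weeks it stood at 3.86, 5.34, 4.66 and 6.21 CPM, from 118, 154, 145 and 215 counts. The groups did not overlap, and 68-week replicate 1 lay nearest to the 12-week libraries. Its counting interval, 3.20 to 4.62 CPM (95%), overlapped that of 12-week replicate 3, 2.76 to 4.31 CPM. The mean was 3.16 ± 0.28 CPM (SD, n = 4) at 12 weeks and 5.02 ± 1.00 (SD, n = 4) at 68 weeks. The log2 fold change was 0.73 ± 0.16 (SE), with an adjusted p of 0.046 by edgeR. In normalized CPM, 6.26% of all genes tested were higher at 68 weeks with no overlap. The call lay close to the threshold. It was lost with library size alone as the normalization (adjusted p = 0.054), and when any 1 library other than 68-week replicate 1 was left out (adjusted p up to 0.114). The log2 fold change lay between 0.61 and 0.84 over the 8 fits that leave out 1 library.

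For single genes, the two-sided exact permutation test over 4 against 4 libraries cannot give less than p = 0.0286. Cd79a, Cd79b and Blk each reached that value. Whether replicates are different animals is not stated in the labels, and the p-values cover the variation from library to library, which may be technical.

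The ratio of Blk to each of the 4 other genes was compared within libraries, which needs no normalization between them. The log2 ratio of Blk to Cd79a, with 0.5 added to each count, was 1.5, 1.05, 0.86 and 2.66 in the 12-week group (replicates 1 to 4) and 3.64, 4.36, 4.10 and 4.66 in 68-week replicates 1 to 4. It was higher in all 4 libraries at 68 weeks, by 2.67 on average (exact permutation p = 0.0286, and 0.0571 adjusted over the 4 ratios of Blk). The ratio to Cd79b differed by 2.65 with the same p-values. In CPM, Blk was already higher and Cd79a and Cd79b already lower at 68 weeks with no overlap, so these ratios had to separate. Their p-values therefore add nothing to the values of the single genes. The ratios to Ms4a1 and Cd22 differed by 2.14 and 2.26, with some overlap (exact permutation p = 0.0571 for each, 0.0571 adjusted). After adjustment none of the 4 ratios passed 0.05.

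Per length, using the exon lengths in the count files, Blk and Cd79b were the most abundant at 12 weeks. Blk stood at 2.96 ± 0.278 TPM (counts per exon length, scaled to the same total in every library; SD, n = 4), Cd79b at 2.84 ± 1.13 and Cd79a at 1.93 ± 0.891. Cd22 and Ms4a1 stood lower, at 0.488 ± 0.261 and 0.386 ± 0.3 TPM. Within libraries of that age, Blk lay above Cd79b in 2 of 4, Cd79b above Cd79a in 4 of 4, Cd79a above Cd22 in 4 of 4 and Cd22 above Ms4a1 in 3 of 4. At 68 weeks Blk stood at 4.58 ± 0.897 TPM, above Cd79b at 0.686 ± 0.349 and Cd79a at 0.398 ± 0.0433. Cd22 stood at 0.164 ± 0.121 and Ms4a1 at 0.101 ± 0.0544. Within each of the 4 older libraries Blk lay above Cd79b, Cd79b above Cd79a and Cd79a above Cd22, while Cd22 lay above Ms4a1 in 2 of 4. The order of Blk and Cd79b at 12 weeks, and that of Cd22 and Ms4a1 at both ages, thus differed from library to library.

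**Figure D2:**
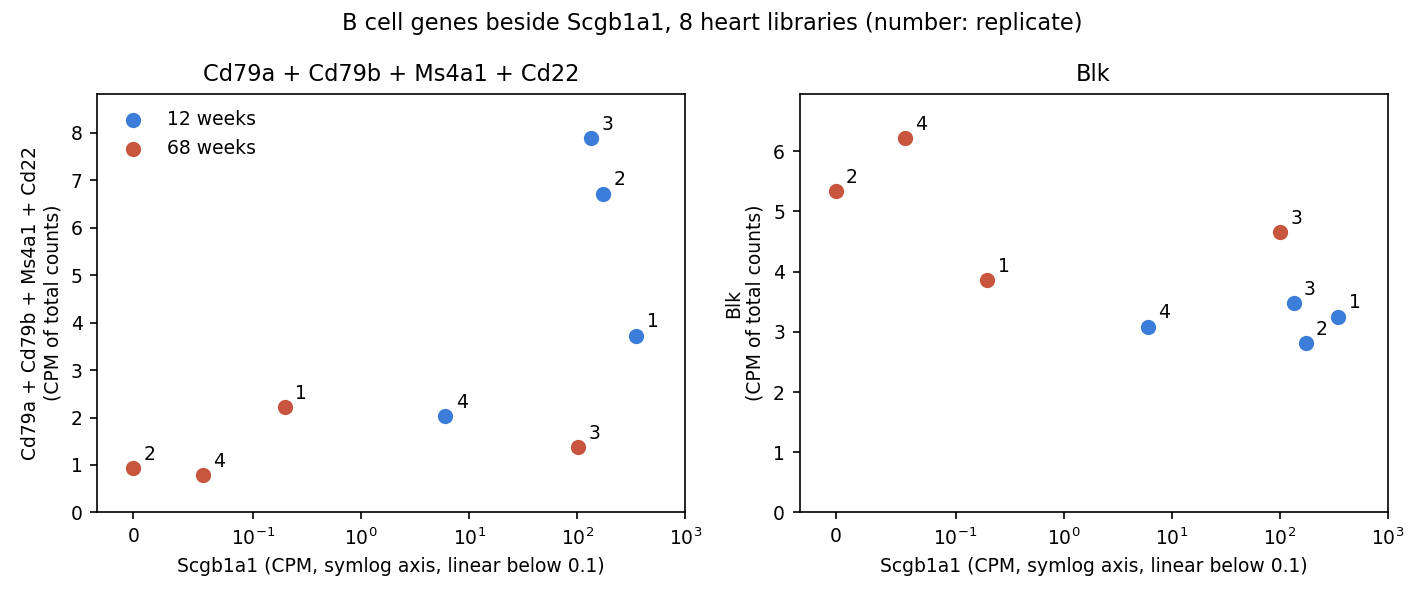
Summed CPM of Cd79a, Cd79b, Ms4a1 and Cd22 (left, y) and CPM of Blk (right, y) against CPM of Scgb1a1 (x, symlog), 1 point per library, numbered by replicate and coloured by age. The 68-week library with 102 CPM of Scgb1a1 has 1.38 CPM of the 4 genes, against 3.73 to 7.88 CPM in the 12-week libraries with higher Scgb1a1.

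The 4 genes other than Blk summed to 3.73, 6.72, 7.88 and 2.03 CPM in the 12-week group (replicates 1 to 4) and reached 2.23, 0.936, 1.38 and 0.78 CPM in the 68-week group. Beside Scgb1a1, the highest sums belonged to 12-week replicates 2 and 3, whereas Scgb1a1 was highest in 12-week replicate 1. The 12-week library with little Scgb1a1, replicate 4, had the lowest sum of its age, below 68-week replicate 1. The 68-week library with much Scgb1a1, replicate 3, did not have the highest sum of its age. The libraries fell into 2 sets by airway counts, so no correlation was computed.

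In the airway-rich set, 12-week replicates 1 to 3 against 68-week replicate 3, the log2 fold changes were -2.44 for Cd79a, -2.22 for Cd79b, -2.49 for Ms4a1, -1.38 for Cd22 and 0.59 for Blk. In the airway-poor set, 12-week replicate 4 against 68-week replicates 1, 2 and 4, they were -0.83 for Cd79a, -1.16 for Cd79b and -0.13 for Cd22, and Blk had 0.79. The direction of Ms4a1 turned there, at 0.71. The 12-week library of this set was not free of airway or alveolar transcripts. It had 6.02 CPM of Scgb1a1, against 0 to 0.196 CPM in the 68-week libraries of the set. Its alveolar genes summed to 5.66 CPM, against 0.624 to 1.15 CPM in those libraries. Each set holds a single library of 1 age, so these are given as values, and the absence of calls there says nothing about stability. With the log2 sum of the 20 airway markers in the model, the log2 fold changes were -1.77 ± 0.50 for Cd79a, -1.78 ± 0.52 for Cd79b and 0.65 ± 0.20 for Blk, and those of Ms4a1 and Cd22 were -1.41 ± 0.89 and -0.95 ± 0.67 (SE). In that fit edgeR called 0 of the 5 (adjusted p from 0.185 to 0.636), while 2 were lower and 1 was higher at an unadjusted p under 0.05. That model called 0.138% of all genes lower and 0.464% higher, and 6.09% were lower and 6.08% higher at an unadjusted p under 0.05. In the airway-poor set its covariate rests mainly on Tppp3 in the 68-week libraries, while secretory genes also raise it in 12-week replicate 4. Without 12-week replicate 4 and 68-week replicate 3, a comparison chosen after seeing the data, Cd79a and Cd79b were called (-2.42 and -2.12, adjusted p = 0.0068 and 0.0348, edgeR) and Blk was not (0.78, adjusted p = 0.0689).

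**Figure D3:**
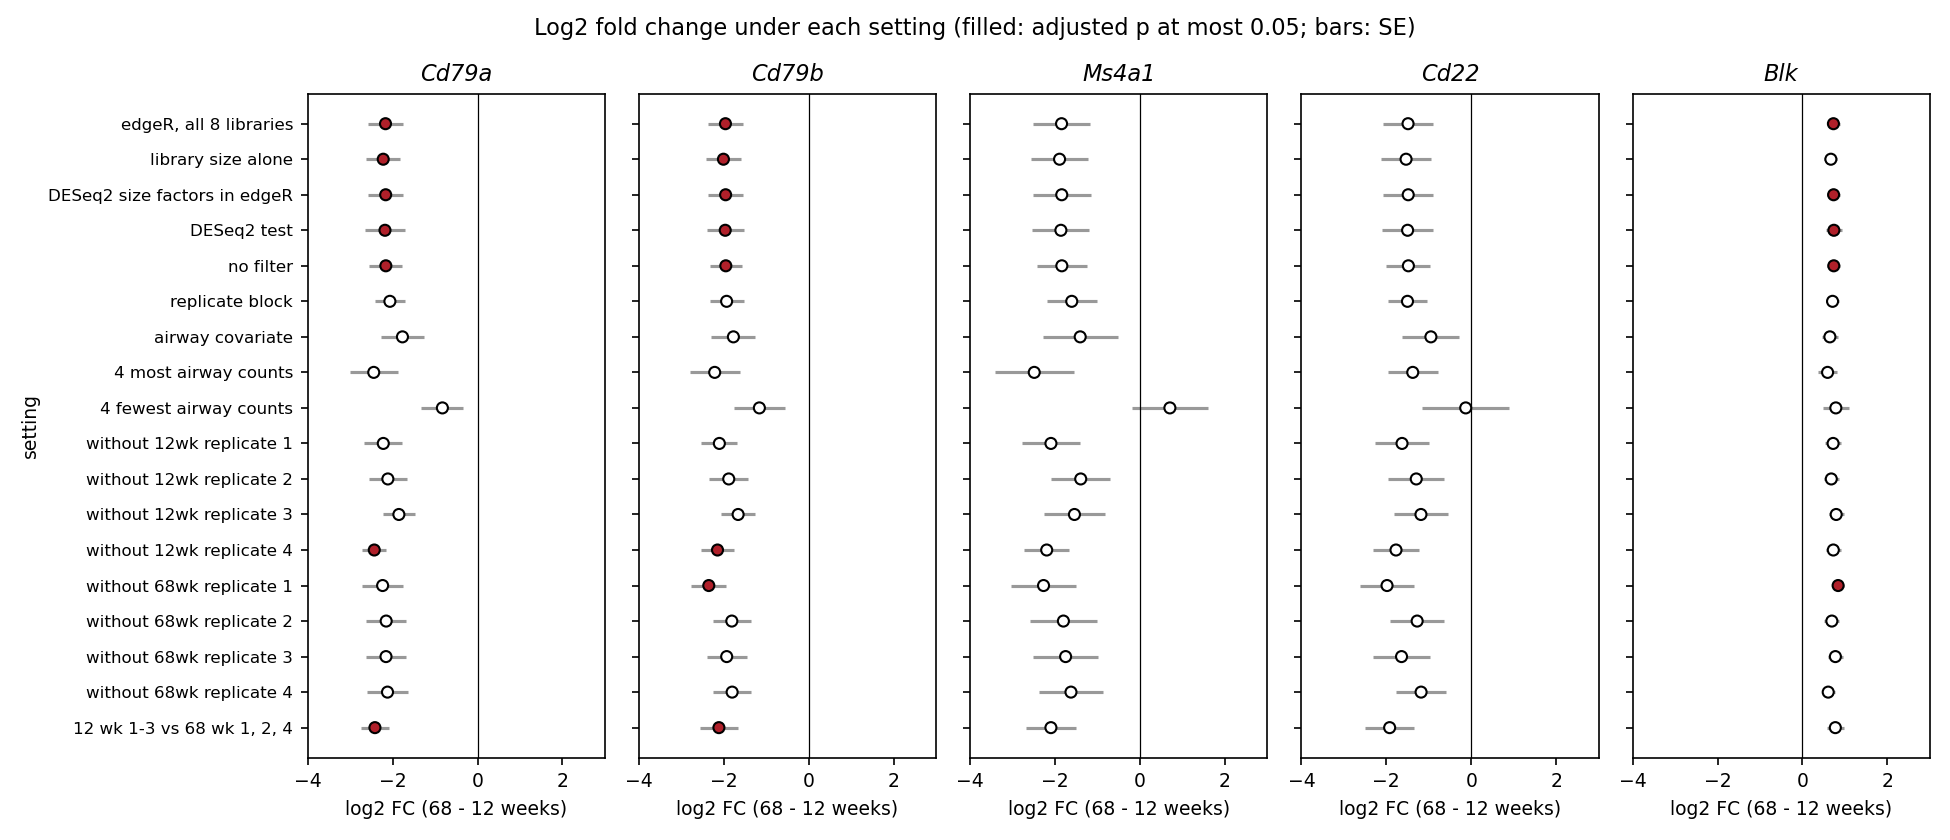
Log2 fold change of each of the 5 genes (x, 68 minus 12 weeks) under each fit (y), with SE as bars and filled points where the adjusted p was at most 0.05. Cd79a, Cd79b and Cd22 are negative and Blk positive under every fit drawn, and Ms4a1 turns positive in the airway-poor set of 4 libraries.

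Other surface genes of B cells were mostly lower in value. Of 16 listed, 12 passed the filter, 11 of these had a negative log2 fold change, and edgeR called 1 lower and 0 higher (6 lower and 0 higher at an unadjusted p under 0.05, 2 and 0 by DESeq2). Over all genes tested, 9.77% were lower and 9.26% higher at an unadjusted p under 0.05, and DESeq2 called 2.67% lower and 3.46% higher. The list's median was -0.64, against -0.0082 over all genes tested. Tnfrsf13b, which encodes the TACI receptor for the survival factors BAFF and APRIL, fell, with 1.18 ± 0.161 CPM in the younger and 0.594 ± 0.0969 in the older hearts (SD, n = 4; log2 fold change -0.94 ± 0.20, adjusted p = 0.0423, edgeR). Cr2, Fcer2a, Cd40 and Cd72 had values of -1.14, -0.87, -0.69 and -0.48 and were not called. In the airway covariate fit, 0 of these 12 passed the threshold of edgeR (2 lower at an unadjusted p under 0.05).

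Genes of receptor signalling, most of them shared with other blood cells, gave smaller values. All 22 listed passed the filter, 3 were called lower and 1 higher, and the median log2 fold change was -0.31. At an unadjusted p under 0.05, 8 were lower and 1 higher, and DESeq2 called 4 lower and 1 higher. Over all genes tested, edgeR called 1.22% lower and 1.61% higher. Ptprc, the leukocyte phosphatase CD45, fell from 15.5 ± 2.98 to 8.93 ± 0.311 CPM (SD, n = 4; -0.74 ± 0.13, adjusted p = 0.0236, edgeR). Malt1, a protease of the pathway from the receptor to NF-kappaB, fell from 7.23 ± 0.802 to 4.73 ± 0.152 CPM (-0.55 ± 0.08, adjusted p = 0.0117). The adaptor gene Pik3ap1 fell (-0.56 ± 0.11, adjusted p = 0.0335), and the phospholipase gene Plcg2 rose from 15 ± 1.14 to 18.4 ± 1.65 CPM (0.36 ± 0.08, adjusted p = 0.0468). The kinase genes that act beside BLK were not called, with values of 0.24 ± 0.11 for Syk, -0.089 ± 0.10 for Lyn and -0.35 ± 0.21 for Btk. With airway markers in the model, 0 of the 22 were called (4 lower and 1 higher at an unadjusted p under 0.05).

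Of 12 transcription factors of the B lineage, all passed the filter, all had negative values and 2 were called lower, with a median log2 fold change of -0.53. At an unadjusted p under 0.05, 8 were lower, and DESeq2 called 5 lower. Over all genes tested, edgeR called 1.22% lower. Pax5, the factor that holds B cell identity and activates Cd79a, had the lowest value, -2.35 ± 0.39 (adjusted p = 0.0181, edgeR). It stood at 1.14, 2.12, 2.58 and 0.834 CPM in the 12-week group (replicates 1 to 4) and at 0.36, 0.243, 0.321 and 0.318 CPM in 68-week replicates 1 to 4, an order like that of Cd79b at 12 weeks. Foxo1, which is also expressed outside B cells, fell by 0.24 on the log2 scale (SE 0.051, adjusted p = 0.0427). Ebf1, which acts with Pax5 and is also expressed in other cells, had -0.14 ± 0.07, and Pou2af1 had -1.57 ± 0.41 (adjusted p = 0.0742). Called with airway markers in the model were 0 of the 12 (5 lower at an unadjusted p under 0.05, and Pax5 at -2.07 ± 0.50).

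**Figure D4:**
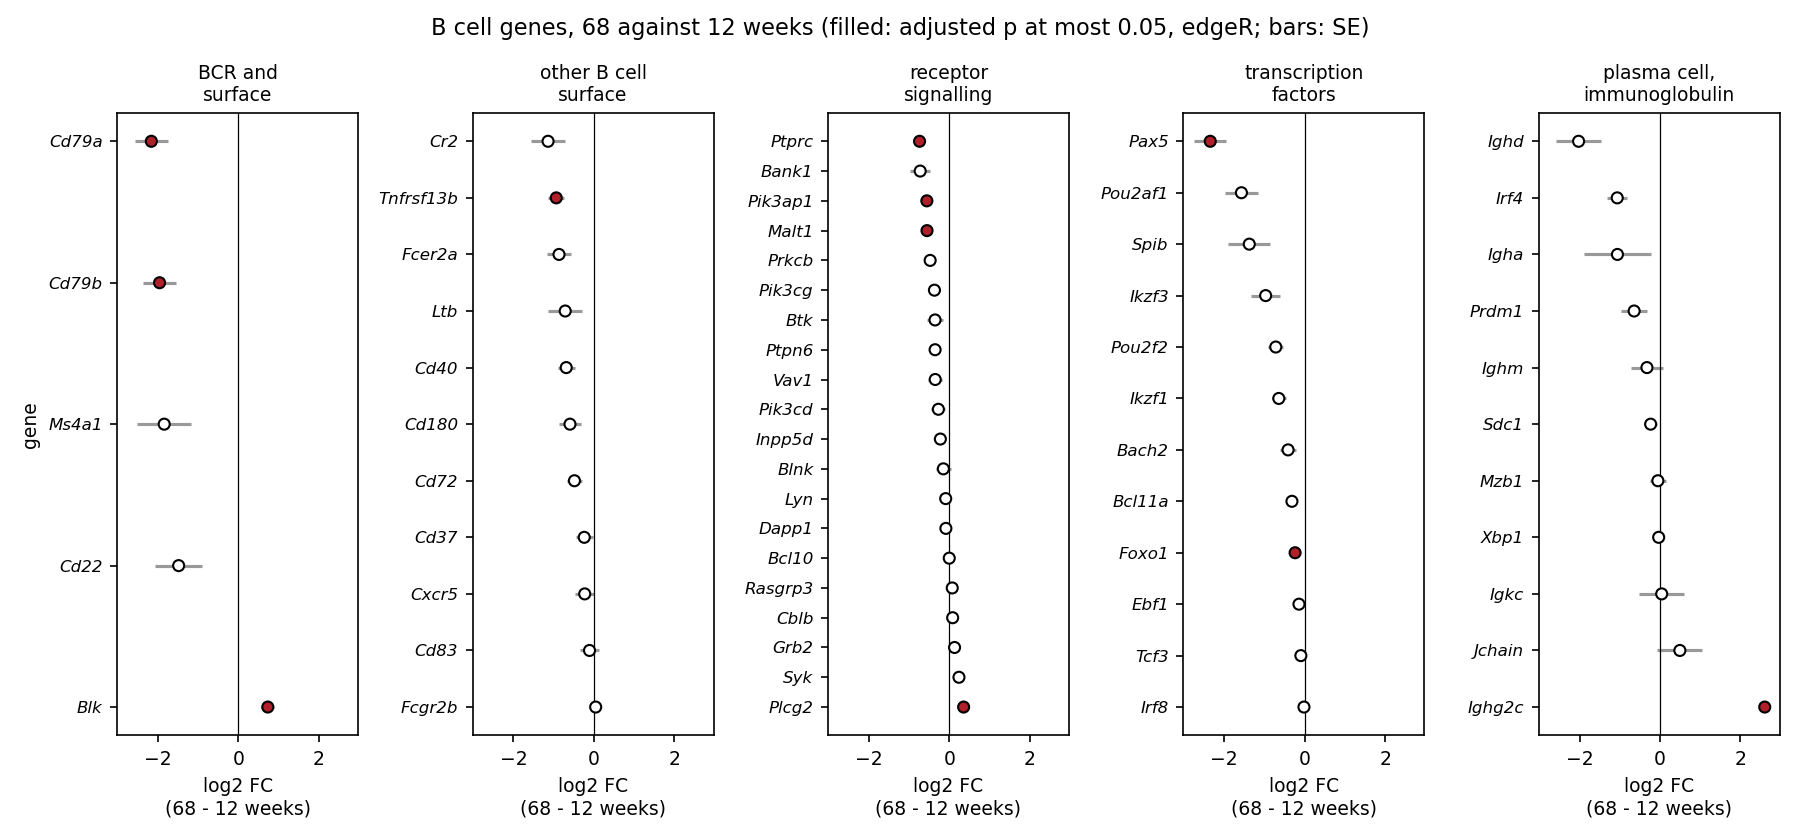
Log2 fold change (x, 68 minus 12 weeks) with SE of B cell genes that passed the filter and are reported here, in 5 groups (panels), filled where the adjusted p was at most 0.05. Values lie mostly to the left of 0 in the first 4 groups, and Blk, Plcg2 and Ighg2c are the called genes to the right.

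Genes of antibody-secreting cells and immunoglobulins gave mixed values. Of 14 listed, 11 passed the filter, 1 was called higher and 0 were called lower (1 higher and 2 lower at an unadjusted p under 0.05 and by DESeq2), and the median log2 fold change was -0.23. The called gene was Ighg2c, the constant region of an IgG heavy chain, at 1.85 to 2.01 CPM at 12 weeks and 9.78 to 12.5 CPM at 68 weeks (2.60 ± 0.10, adjusted p = 5.46e-06, edgeR). In the airway covariate fit Ighg2c kept its call (2.67 ± 0.12, adjusted p = 4.06e-05, edgeR). The light chain gene Igkc did not follow it, with 0.040 ± 0.56 and means of 3.11 and 3.08 CPM at 12 and 68 weeks. Ighg1 and Ighg2b, of other IgG heavy chains, had 3 and 8 counts over the 8 libraries. IgG constant regions are related in sequence and the settings for multi-mapping are not given, so how reads were split among them is uncertain. Ighd, the constant region of IgD found on mature naive B cells, had -2.03 ± 0.55 (adjusted p = 0.0854, edgeR), and Ighm had -0.33 ± 0.40. The factors Irf4 and Prdm1, which drive plasma cell formation, had -1.07 ± 0.24 (adjusted p = 0.0513, edgeR) and -0.65 ± 0.32, and Mzb1 (-0.055 ± 0.19) and Jchain (0.49 ± 0.56) lay nearer to or above 0. None of these 4 was called. Of 8 genes of B cell precursors, only Il7r passed the filter and it was not called (0.53 ± 0.34). The surrogate light chain genes Vpreb2 and Igll1 had 0 counts in all 8 libraries, and Vpreb1 had 9 counts over the 8.

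Markers of other cells were measured beside these. Over all genes tested, edgeR called 1.22% lower and 1.61% higher. Of 16 T and NK cell genes, 6 passed the filter and 1, the T cell receptor gene Trac, was called lower (-1.04 ± 0.22, adjusted p = 0.0424, edgeR). In that list 2 were lower at an unadjusted p under 0.05, and 2 by DESeq2. Of the 6 tested, 5 had negative values, and the median log2 fold change was -0.82. Other T cell genes did not follow Trac, with 0.46 ± 0.40 for Cd3e and -0.070 ± 0.33 for Cd4, neither called. Trac lost its call in the airway covariate fit (-0.99 ± 0.26, adjusted p = 0.164). The T and NK list as a whole had 4.54 to 8.43 CPM at 12 weeks and 3.12 to 4.52 CPM at 68 weeks. Its order over the 12-week libraries, with replicate 3 highest and replicate 4 lowest, was that of the summed CPM of the 4 genes other than Blk. Of 8 neutrophil genes, 6 passed and edgeR called 0 (5 lower at an unadjusted p under 0.05, 5 by DESeq2), and they summed to 7.23 to 41.7 CPM at 12 weeks and 5.17 to 10.2 CPM at 68 weeks. Of 14 macrophage genes, all passed and 1, Cx3cr1, was called lower (-1.62 ± 0.22, adjusted p = 0.00738, edgeR). In that list 3 were lower at an unadjusted p under 0.05, and 2 by DESeq2. The macrophage genes had a sum of 305 to 339 CPM at 12 weeks and 286 to 322 CPM at 68 weeks. Of 10 adipocyte genes, 4 were called lower (9 at an unadjusted p under 0.05, 7 by DESeq2) and 0 in the airway covariate fit (9 lower at an unadjusted p under 0.05), and they summed to 720 to 1341 CPM at 12 weeks and 327 to 582 CPM at 68 weeks. The part of these cells in the values of Cd79a and Cd79b was not tested.

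Of 10 genes of the stroma that organises lymphoid tissue, 9 were in the table and 5 passed the filter. The chemokine gene Ccl21a and the vessel gene Glycam1 had 0 counts in all 8 libraries, and Cxcl13, the chemokine that draws B cells into follicles, had 1.01 ± 0.33 (adjusted p = 0.136, edgeR). None of the list was called (2 higher and 0 lower at an unadjusted p under 0.05, 0 by DESeq2). Among thymus genes, Psmb11 and Foxn1 had 0 counts in all 8 libraries, Ptcra had 7 counts over the 8, and of the 8 listed only Cd1d1, which other cells also express, passed the filter and was not called (-0.98 ± 0.25, adjusted p = 0.0706, edgeR). Alveolar genes summed to 4.53 to 14.9 CPM at 12 weeks and 0.624 to 5.43 CPM at 68 weeks, with 0 of 5 tested called (3 lower at an unadjusted p under 0.05, 0 by DESeq2). Of the airway genes, 9 of 10 secretory and all 10 ciliated genes passed the filter and edgeR called 0 (2 secretory genes lower at an unadjusted p under 0.05, 0 by DESeq2). Of 8 heart muscle genes, 0 were called by edgeR (3 higher at an unadjusted p under 0.05, 1 by DESeq2).

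By the Pearson correlation of log2 CPM with the mean of the 5 standardised genes over 8 libraries, the most similar genes were Arhgap45 (0.988), Cd9 (0.977), Itga4 (0.976), Traf3ip3 (0.969) and Sart1 (0.966). The next were Ptpn18, H2-Ob, Rilpl1, Foxn3 and Lcp2, from 0.959 down to 0.947. H2-Ob encodes a chain of the MHC class II chaperone H2-O found mainly in B cells, and Itga4 an integrin of leukocytes. After the mean of each age was removed, the highest were Ptprc (0.967), Traf3ip3 (0.961), Kcnab2 (0.961), Arhgap45 (0.96) and Cd9 (0.96), followed by Itgb7, Pax5, Foxn3, Ano5 and Jaml down to 0.948. Blk runs against the other 4 and so pulls this mean. With Blk left out, the most similar over 8 libraries were Arhgap45 (0.982), Itga4 (0.974), Sh2d4b (0.967), H2-Ob (0.959) and Zfp94 (0.956). Against Blk alone, a comparison chosen after its values were seen, Kpna3 (0.979), Tgm2 (0.975) and Ints8 (0.974) were the most similar. Predicted and unnamed genes and antigen receptor V, D and J segments were left out of these rankings, and so was Ighd by its name. All points share their libraries, and with 8 points such values rank genes and test nothing.

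In the authors' lists of H3K27me3 regions unique to an age, which hold 1164 regions at 12 weeks and 3433 at 68 weeks, 0 of the 5 genes and 0 of the 16 other surface genes were linked to a region. Of the 12 transcription factors, 4 were linked at 12 weeks and 6 at 68 weeks. Pax5 was linked to 1 region at 12 weeks and 2 at 68 weeks, and Pou2af1 to 1 region at 68 weeks, with a score of 7.83 in the authors' own unit. The signalling genes Blnk and Pik3ap1 were linked at 68 weeks and not at 12 weeks. Among the 15938 gene names tested in RNA, 225 were linked at 12 weeks and 539 at 68 weeks. The lists hold no value per library and were made from whole heart tissue.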

How the data were processed

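RNA-seq counts of 8 heart libraries were used, 4 at 12 and 4 at 68 weeks. The deposited values were whole-number counts per gene, not normalized. The submitters' processing notes name Trimmomatic 0.36, STAR 2.5.2b, featureCounts, Subread 1.5.2 and DESeq2, without roles, and mm10. For strand and multi-mapping, settings are not given in the sources used here. Per-library files and the series table agreed in all 49315 rows. The deposited region lists give a score per region, on a scale not stated by the authors. The exon lengths used for TPM came from the other deposited column of the count files.

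Counts were fitted with edgeR 4.0.16 in R 4.3.3 (quasi-likelihood test, TMM, filterByExpr, age alone in the model), with Benjamini-Hochberg adjustment over 15947 genes at 0.05. The SE is the size of the log2 fold change over the square root of F. CPM uses total counts. The code was tested on simulated data. DESeq2 1.42.0, other normalizations, no filter, a replicate block, an airway covariate and left-out libraries were tried. The members, the 16 gene lists and the tests were chosen with earlier results of these data known. Named genes were the members, Scgb1a1, up to 4 genes per list with the smallest p, called genes of the B cell lists, and the 10 most correlated genes. The correlated genes were taken after leaving out predicted and unnamed genes, antigen receptor segments and Ighd. Further listed genes named for their role or for 0 counts were chosen after their values were seen. Some listed genes enter the counts and medians of their lists but are not reported here by name.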

Additional observations from a re-analysis of the deposited data

Results flagged for a closer look

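Scgb1a1 stood at 102 CPM in 68-week replicate 3 against 0 to 0.196 CPM in its 3 companions, a gap of 0.998 of the group's range, above Dixon's 95% critical value for 4 libraries. The same check over both ages of the 5 B cell genes and Scgb1a1 made 12 groups and picked out 1. About 1 in 20 groups would be picked out by chance. In that library Cd79a stood at 0.257 CPM, inside the range of the other 3.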

How the results depend on the processing

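Of 17 alternative fits each, 2 of them with a single library in 1 age, Cd79a was called in 6, Cd79b in 7 and Blk in 4, and Ms4a1 and Cd22 in 0. Directions held for all but Ms4a1. With library size alone, Blk had 0.67. With the replicate block, Cd79a had -2.06, Cd79b -1.93 and Blk 0.71, and 0 of the 5 genes were called lower (4 at an unadjusted p under 0.05). Over all genes the block gave 48 lower and 112 higher calls, against 195 and 256. Same-numbered libraries had deviations correlated at -0.26 to 0.37, and only 1 of 4 correlated best with its own number, so the numbers were not taken as pairs. With airway markers in the model, Cd79a had -1.77, Cd79b -1.78 and Blk 0.65, with 0 called lower. In the airway-rich set of 4 libraries these were -2.44, -2.22 and 0.59, with 0 called lower, 1 age being a single library, so that the lack of calls says nothing of stability. In the airway-poor set of 4 they were -0.83, -1.16 and 0.79, Ms4a1 turned to 0.71, and 0 were called lower, again with a single library in 1 age; the cause was not tested. In 12-week replicates 1 to 3 against 68-week replicates 1, 2 and 4, Blk had 0.78. Leaving out 1 library gave -2.43 to -1.85 for Cd79a, -2.35 to -1.66 for Cd79b, 0.61 to 0.84 for Blk and 0 to 2 genes called lower. Over all genes, lower and higher calls were 439 and 568 by DESeq2, 22 and 74 with airway markers, 1 and 4 in the airway-rich set, 23 and 10 in the airway-poor set, 485 and 265 without 12-week replicate 4 and 68-week replicate 3, and 52 to 154 and 117 to 209 without 1 library. DESeq2 and no filter kept the calls of Cd79a, Cd79b and Blk. Counts of 4 to 64 per library limit the 4 genes other than Blk. At such depth a share of the spread is counting error.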
